A study of Drosophila melanogaster with 34 samples.

Results

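HDAC1 and HDAC3 are histone deacetylases, enzymes that take acetyl groups off histone tails, and their binding along the chromosome arms of Drosophila melanogaster embryos is compared here. The members were all peaks of the 4 deposited lists for these enzymes on chromosomes X and 4 and the left and right arms of chromosomes 2 and 3 (2L, 2R, 3L, 3R). They numbered 12260 of the 48081 regions that the 18 lists of the series hold on these arms. HDAC1 list 1 held 2998 of them and HDAC1 list 2 held 4105. HDAC3 list 1 held 2605 and HDAC3 list 2 held 2552.

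All 4 lists came from untreated whole embryos of 0 to 12 h laid by y; bw cn sp flies, so each mixes all cell types and all stages of that span. The assay was chromatin immunoprecipitation followed by sequencing, with an antibody labelled HDAC1 or HDAC3, on chromatin fixed with 1.8% formaldehyde. Each list was made from 2 pooled libraries, and all were set against the same 1 input library. Whether the lists of an enzyme came from separate embryo collections or from different antibodies is not stated, and the spread between them, which is all the tests below can measure, may therefore be technical. The lists give a start and an end for each peak, with no height and no read count, and the depth behind a peak is therefore unknown. Both enzymes have 2 lists, so an exact permutation test over the 6 divisions of the 4 lists cannot give a two-sided p below 0.333. For that reason the values of all 4 lists are given, with a statement of whether the enzymes overlapped.

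HDAC1, also called Rpd3 in flies, is the catalytic subunit of several corepressor complexes, among them the Sin3, NuRD and CoREST complexes. HDAC3 works in the corepressor complex built on SMRTER, the fly relative of the vertebrate NCoR and SMRT proteins. SMRTER also binds the ecdysone receptor EcR. Both enzymes are recruited by DNA-binding repressors, and deacetylases of this class have also been mapped to active genes in other species.

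HDAC3 peaks were about double the width of HDAC1 peaks. The median width was 2847.5 bp in HDAC1 list 1 and 2763 bp in HDAC1 list 2, against 5295 bp in HDAC3 list 1 and 5825.5 bp in HDAC3 list 2. Both HDAC3 lists lay above both HDAC1 lists, and the 2 lists of an enzyme lay close together. The means were 2805 ± 59.8 bp for HDAC1 and 5560 ± 375 bp for HDAC3 (SD, n = 2 lists each), a ratio of 1.98 (two-sided exact permutation test, p = 0.333, the smallest possible). The lists were also separate on each of the 6 arms, with ratios from 1.58 on chromosome 4 to 2.22 on 3R.

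The gap between the enzymes grew towards the wide end. Peaks of 10 kb or more made up 1.43% of HDAC1 list 1 (95% Wilson interval 1.07% to 1.93%) and 2.12% of HDAC1 list 2 (1.72% to 2.61%). They made up 17.8% of HDAC3 list 1 (16.4% to 19.3%) and 21.6% of HDAC3 list 2 (20.1% to 23.3%). These intervals, like all those below, cover counting error only. In numbers, the HDAC1 lists held 43 and 87 such peaks and the HDAC3 lists 463 and 552. At the narrow end, peaks under 2 kb were 22.1% and 22.6% of the HDAC1 lists, and 6.49% and 3.88% of the HDAC3 lists.

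**Figure D1:**
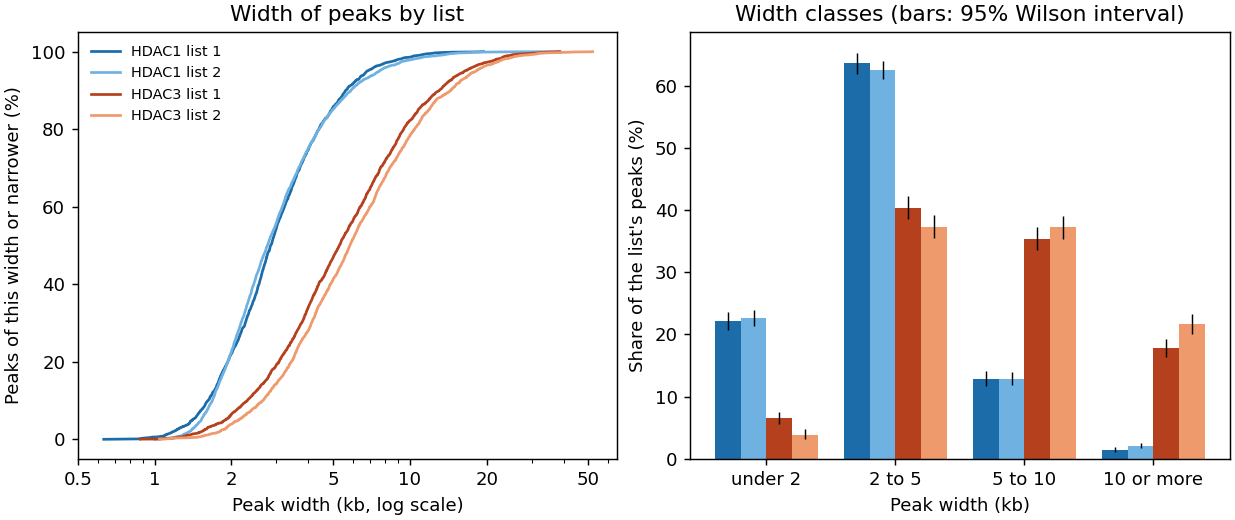
Peak widths in the 4 lists. The left panel gives the share of peaks (vertical, %) at or below a width (horizontal, kb, log scale). The right panel gives the share of peaks in 4 width classes with 95% Wilson intervals. The HDAC1 curves run together with medians of 2763 and 2847.5 bp, to the left of the HDAC3 curves with medians of 5295 and 5825.5 bp.

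The widest peaks of the lists lay at different places. In HDAC1 list 1 the widest was 19422 bp long, at chr2R:9440930-9460351, and HDAC3 covered only a small part of it with peaks of 4052 and 3964 bp. The widest of HDAC1 list 2 reached 38236 bp, at chr2L:14427445-14465680, where neither HDAC3 list had a peak. HDAC1 list 1 split the same stretch into 4 peaks of at most 11846 bp. In HDAC3 list 1 the widest peak was 38734 bp long, at chr3R:20449256-20487989, and HDAC3 list 2 spanned it with 1 peak of 39769 bp. HDAC1 had 2 peaks inside it in each list, of at most 3849 bp. The widest of all, 52014 bp at chr3R:11143804-11195817, came from HDAC3 list 2, and HDAC3 list 1 held 4 peaks there. All positions are 1-based on release 5 of the genome. No gene was assigned to any of them, since no annotation of release 5 was used here.

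HDAC3 covered more of the arms with fewer peaks. Coverage was 8.36% and 11.7% of the 120 Mb of arm sequence in the HDAC1 lists, and 14.6% and 15.8% in the HDAC3 lists. The HDAC3 lists lay above both HDAC1 lists, by a ratio of means of 1.51 (exact permutation p = 0.333). The HDAC1 lists differed more from each other than the HDAC3 lists did, with 4105 peaks in list 2 and 2998 in list 1. Without HDAC1 list 1 the ratio was 1.29, and without HDAC1 list 2 it was 1.82.

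The median gap from one peak to the next did not separate the enzymes. It was 15020.5 bp in HDAC1 list 1, 9992 bp in HDAC1 list 2, 10726 bp in HDAC3 list 1 and 11934 bp in HDAC3 list 2, so both HDAC3 values fell between the HDAC1 values (exact permutation p = 1). The ends of the distribution did differ. Gaps of 1 kb or less were 7.52% (6.63% to 8.52%) and 10.8% (9.87% to 11.8%) of all gaps in the HDAC1 lists. They were 21.2% (19.7% to 22.8%) and 17.8% (16.3% to 19.3%) in the HDAC3 lists. Gaps over 100 kb were also more frequent for HDAC3, at 12.0% and 12.3%, than for HDAC1, at 9.32% and 6.17%. HDAC3 binding was thus more often broken into close neighbours and more often absent over long stretches, in both lists of each enzyme.

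Joining neighbours over gaps of 1 kb or less turned the HDAC3 lists into 2054 and 2100 runs with median widths of 6409 and 6629.5 bp. The HDAC1 lists became 2773 and 3663 runs of 2947 and 2967 bp. Runs of 3 or more peaks numbered 95 and 63 for HDAC3 and 12 and 41 for HDAC1. After joining, the median gap was 19531.5 and 18281 bp for HDAC3 and 17240 and 12220 bp for HDAC1, so the HDAC3 values then lay above both HDAC1 values. The longest run held by both HDAC3 lists spanned 52548 bp at chr2R:4984285-5036832 and contained 4 peaks of list 1 and 3 of list 2. The longest HDAC1 run held by both lists, 25291 bp at chr2L:14435423-14460713, lay inside the widest HDAC1 list 2 peak.

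The longest stretch without either enzyme lay at the centromere-proximal end of 3L. No HDAC1 peak was found from chr3L:23143886-24530663 in either list, a stretch of 1386778 bp that runs to the last base covered by any list. HDAC3 was absent from the last 1206736 bp of the same stretch. Elsewhere the empty stretches of one enzyme could hold the other. The longest remaining stretch without HDAC3, 634460 bp at chr3R:3077348-3711807, held 2 peaks of HDAC1 list 1 and 1 peak of HDAC1 list 2. The next longest, 511480 bp at chr2L:14493771-15005250, held 7 and 16 HDAC1 peaks. In the other direction, 406531 bp of 3L without HDAC1, at chr3L:13508040-13914570, held 2 peaks in each HDAC3 list, which covered 1.33% and 1.4% of it. A further 354893 bp of X without HDAC1, at chrX:14120940-14475832, held 4 peaks in each HDAC3 list, the widest of 17440 bp.

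On the X chromosome HDAC3 held a larger part of its peaks than HDAC1. The X makes up 18.7% of the arm bases. It carried 17.5% (16.2% to 18.9%) and 16.9% (15.8% to 18.1%) of the HDAC1 peaks, against 21.4% (19.9% to 23.0%) and 20.8% (19.3% to 22.5%) of the HDAC3 peaks. The lists did not overlap, with a ratio of means of 1.23 (exact permutation p = 0.333). On every other large arm the HDAC1 lists had more peaks per Mb than both HDAC3 lists, but on X they did not, at 23.4 and 30.9 peaks per Mb for HDAC1 and 24.9 and 23.7 for HDAC3. HDAC3 covered 14.04% and 14.7% of X and HDAC1 6.82% and 8.99%, so that the ratio of coverage was 1.82 on X against 1.31 to 1.68 on 2L, 2R, 3L and 3R. Peaks of both enzymes were narrower on X than on these arms. The X medians were 2521 and 2431 bp for HDAC1 and 4404 and 5055 bp for HDAC3.

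**Figure D2:**
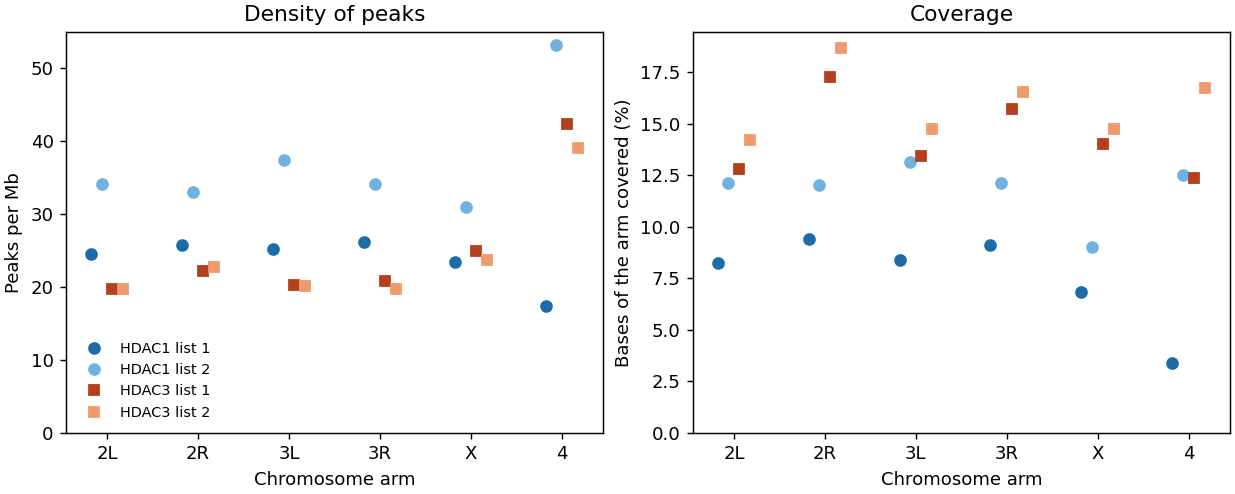
Peaks per Mb (left) and share of bases covered (right, %) on each chromosome arm, with 1 point per list. HDAC1 points lie above HDAC3 points in density on 2L, 2R, 3L and 3R but overlap them on X and 4. HDAC3 points lie above HDAC1 points in coverage on every arm except 4.

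Chromosome 4, a small and largely heterochromatic chromosome with 1.0% of the arm bases, separated the HDAC1 lists from each other. HDAC1 list 1 had 21 peaks there (0.70% of its peaks, 0.46% to 1.07%) and HDAC1 list 2 had 64 (1.56%, 1.22% to 1.99%). HDAC3 had 51 (1.96%, 1.49% to 2.56%) and 47 (1.84%, 1.39% to 2.44%). Both HDAC3 shares exceeded both HDAC1 shares, with a ratio of means of 1.68 (exact permutation p = 0.333). That ratio was 2.71 without HDAC1 list 2, 1.22 without HDAC1 list 1 and 3.07 when each list was limited to its 2552 widest peaks. The coverage of chromosome 4 overlapped between the enzymes, at 3.39% and 12.5% for HDAC1 and 12.3% and 16.7% for HDAC3.

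Pooled over the 5 large arms, the share of peaks was lowest next to the centromere for both enzymes. The innermost 10% of these arms held 5.48% and 6.31% of HDAC1 peaks and 7.2% and 7.7% of HDAC3 peaks. The arms differed in this. On 3L the innermost 10% held 2.1% and 2.29% of HDAC1 peaks and 2.42% and 3.46% of HDAC3 peaks, whereas on 3R it held 8.65% and 9.67% of HDAC1 peaks and 13.3% and 11.3% of HDAC3 peaks. On 2L it held 10.4% of the peaks of HDAC3 list 2. Taken over the 20% of each arm nearest the centromere, the shares were 16.0% and 16.3% for HDAC1 and 18.3% and 18.9% for HDAC3. These lists did not overlap either, with a ratio of means of 1.15 (exact permutation p = 0.333). By arm, the mean HDAC3 share of this proximal 20% exceeded that of HDAC1 by 4.04 percentage points on 3L, 3.70 on 3R, 3.36 on X and 1.47 on 2R, with no overlap of lists. On 2L the difference was 0.17 points and the lists overlapped.

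**Figure D3:**
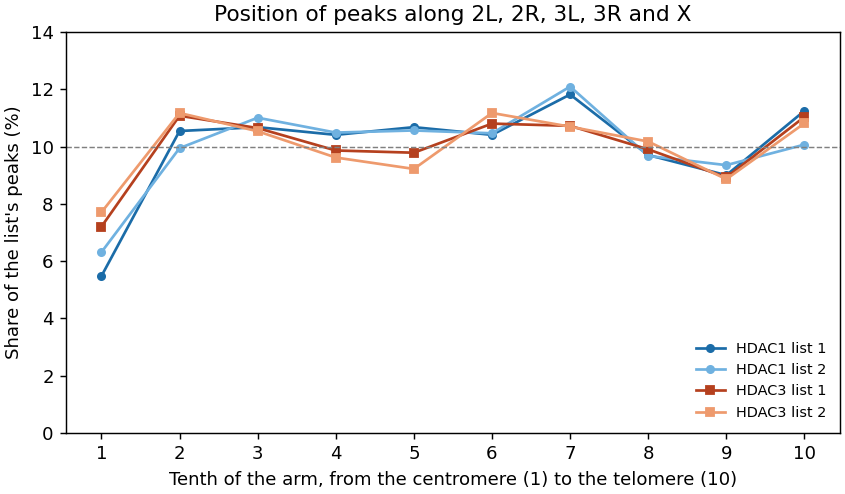
Share of each list's peaks (vertical, %) in 10 equal parts of each large arm, pooled, from the centromere to the telomere; the dashed line marks the 10% that equal density would give. Pooled over these arms, all 4 lists fall lowest in the part nearest the centromere, at 5.48% to 7.7%.

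Windows of 1 Mb showed where the enzymes parted. In plain coverage, both HDAC3 lists lay above both HDAC1 lists in 84 of 120 windows (70.0%) and below both in 3 (2.5%). Coverage was therefore divided by each list's own level over all arms. On that relative scale HDAC1 was higher in both lists in 42 windows (35.0%) and HDAC3 in 42 windows (35.0%). The windows were unevenly spread. HDAC3 was relatively higher in 14 of 22 windows on X and HDAC1 in 4. On 2L the order was the opposite, with HDAC1 higher in 12 of 23 windows and HDAC3 in 3.

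The largest relative surplus of HDAC1 lay at 14 to 15 Mb of 2L. There HDAC1 covered 7.44% and 16.2% of the window and HDAC3 2.37% and 2.74%. The next windows were 14 to 15 Mb and 18 to 19 Mb of 3L and 12 to 13 Mb and 17 to 18 Mb of 3R. HDAC3 had its largest relative surplus at 19 to 20 Mb of X, where it covered 23.9% and 25.0% against 7.49% and 7.46% for HDAC1. Then came 20 to 21 Mb and 1 to 2 Mb of 3R, 15 to 16 Mb of X and 4 to 5 Mb of 2R. At 20 to 21 Mb of 3R the HDAC3 lists covered 29.5% and 32.3% of all bases, against 10.9% and 14.1% for HDAC1.

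Among the 4 lists of HDAC1 and HDAC3, pairs from the same enzyme shared more bases than pairs from different enzymes. The bases common to both lists, as a share of the bases in either, were 83.7% for the HDAC3 pair and 47.6% for the HDAC1 pair. The 4 mixed pairs lay between 17.8% and 21.6%. Lists of other deacetylases were not paired in this way, and 1 of them, HDAC6 list 2, lay close to both HDAC1 lists. In HDAC1 list 1 peaks of 5 kb or more, HDAC6 list 2 covered 67.7% at the edge and 78.8% at the centre. HDAC1 list 2 covered 55.6% and 85.0%. In HDAC1 list 2 peaks of 5 kb or more, HDAC6 list 2 covered 36.2% at the edge and 58.3% at the centre. HDAC1 list 1 covered 37.9% and 63.5%. In wide peaks, the match between the HDAC1 lists was thus not particular to that label. Among the 4 lists of HDAC1 and HDAC3, the edges were also closest within an enzyme. Among peaks that matched one to one, the start differed by a median of 137 bp in the HDAC3 pair (1921 matches) and 244 bp in the HDAC1 pair (2254 matches), against 1906 to 2251 bp in the mixed pairs. Matched peaks of mixed pairs differed in width, with medians of 3000 bp (HDAC1 list 1) and 6261 bp (HDAC3 list 1). Both edges of such peaks cannot coincide, so these offsets follow in part from the widths. Widths followed the same order. Spearman's rho of width over these matched peaks was 0.94 for the HDAC3 pair, 0.67 for the HDAC1 pair and 0.12 to 0.24 for mixed pairs, a description of sites that share the same input library.

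Where the enzymes met, HDAC1 peaks were the smaller blocks, and many lay wholly within an HDAC3 peak. HDAC3 covered 48.9% and 50.9% of the bases in HDAC1 list 1 and 34.0% and 36.2% in HDAC1 list 2, which was 3.34, 3.23, 2.33 and 2.30 times the HDAC3 share of all arm bases. Of the HDAC1 peaks that overlapped HDAC3, 37.6% to 43.5% lay wholly inside 1 HDAC3 peak. The reverse held for 2.27% to 3.36% of the HDAC3 peaks that overlapped HDAC1. A single HDAC3 peak overlapped up to 6 HDAC1 peaks, and 324 to 508 HDAC3 peaks per pair of lists overlapped 2 or more. A wide peak seldom fits inside a narrower one and meets more peaks, so these numbers follow in part from the widths. HDAC1 was spread across the wide HDAC3 peaks. In HDAC3 peaks of 5 kb or more, HDAC1 list 1 covered 27.1% and 26.9% of peaks at the edge and 28.2% and 27.3% at the centre. HDAC1 list 2 covered 30.0% and 30.4% at the edge and 25.6% and 25.7% at the centre.

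Merging the peaks of all 4 lists gave 4541 regions. Of these, 813 (17.9%) were held by both HDAC1 lists and by neither HDAC3 list, 647 (14.2%) by both HDAC3 lists and by neither HDAC1 list, and 1135 (25.0%) by all 4 lists. A further 1130 came from HDAC1 list 2 alone, while 220 came from HDAC1 list 1 alone, 126 from HDAC3 list 2 alone and 45 from HDAC3 list 1 alone. Seen from each enzyme, 33.3% (31.5% to 35.2%) of the 2441 regions in both HDAC1 lists lacked HDAC3, and 29.1% (27.3% to 31.1%) of the 2220 regions in both HDAC3 lists lacked HDAC1. In bases, both HDAC1 lists covered 7.78 Mb, of which both HDAC3 lists covered 44.3%. Both HDAC3 lists covered 16.6 Mb, of which both HDAC1 lists covered 20.7%. Using 1 HDAC1 list in place of both changed the first count, to 1974 without HDAC1 list 1 and 1166 without HDAC1 list 2.

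The regions of 1 enzyme were narrower than the shared ones, which their choice favours, since a wide region meets more peaks. The median was 3511 bp for HDAC1 regions without HDAC3, 4692 bp for HDAC3 regions without HDAC1 and 10883 bp for regions in all 4 lists. HDAC3 regions without HDAC1 lay nearer to HDAC1 than HDAC1 regions without HDAC3 lay to HDAC3. For HDAC3 regions without HDAC1, the median distance to the nearest HDAC1 peak was 4325 bp. Of these regions, 106 lay within 1 kb of an HDAC1 peak, and 5 were more than 100 kb away. HDAC1 regions without HDAC3 lay a median of 11965 bp from HDAC3, with 94 within 1 kb and 51 beyond 100 kb. HDAC1 also had more peaks to be near, with 4445 merged regions against 2573 for HDAC3. At the other side of the limit, the largest overlap between an HDAC1 and an HDAC3 peak was under 250 bp in 9 of the 1135 shared regions and 2 kb or more in 886.

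X and chromosome 4 held a larger share of the HDAC3 regions without HDAC1 than of the HDAC1 regions without HDAC3 or shared regions. X carried 27.7% of them (24.4% to 31.2%), against 17.7% (15.2% to 20.5%) of HDAC1 regions without HDAC3 and 18.1% (15.9% to 20.4%) of shared regions. Chromosome 4 carried 25 of the 647 (3.86%, 2.63% to 5.64%), 11 of the 813 and 5 of the 1135. The chromosome 4 surplus was not particular to HDAC3. Of the 1130 regions of HDAC1 list 2 alone, 36 lay there (3.19%, 2.31% to 4.38%), with 18.6% (16.4% to 21.0%) on X. The 20% of the arms nearest the centromere held 19.3% (16.4% to 22.6%) of HDAC3 regions without HDAC1 on the large arms and 13.5% (11.3% to 16.0%) of HDAC1 regions without HDAC3. It held 16.7% (14.7% to 19.0%) of shared regions and 16.9% (14.8% to 19.2%) of regions of HDAC1 list 2 alone. Both of these intervals overlapped that of HDAC3 regions without HDAC1. These shares treat neighbouring regions as separate, and no test over lists applies to them.

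The other 14 lists of the series, which had no part in the choice of regions, fell differently over the 2 kinds. To allow for width, the share of region bases covered by a list was set beside the share of all arm bases it covers. Of the 14 lists, 10 covered more of the HDAC1 regions without HDAC3, and 4 covered more of the HDAC3 regions without HDAC1. All comparisons below are descriptions of single lists, with no test over replicates.

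Caudal, the homeodomain activator that patterns the posterior embryo, changed sides with stage. The list of 0 to 4 h embryos covered 27.3% of the bases in HDAC1 regions without HDAC3, 6.37 times its share of the arms. It covered 2.59% of the bases in HDAC3 regions without HDAC1, 0.605 times its share of the arms. The list of 4 to 8 h embryos did the reverse, with 3.74% (0.407 times) and 30.6% (3.34 times). In regions, 334 of 813 HDAC1 regions without HDAC3 met the early list and 113 the later one, while among the 647 HDAC3 regions without HDAC1 the numbers were 42 and 364. The adult female list resembled the early one, at 16.6% and 1.77% of bases. The higher share lay on the same side on all 6 arms for each of these 3 lists. The larval list was small, meeting 30 and 14 regions. Early embryos were probed with a Caudal antibody, whereas a GFP antibody and a cad-GFP line served the remaining stages, so between the embryo lists stage and antibody cannot be told apart.

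EcR, the nuclear receptor for ecdysone, met few HDAC3 regions without HDAC1. By number of regions it met HDAC1 regions without HDAC3 about as often as the wider shared regions, but not by bases. Of the 813 HDAC1 regions without HDAC3, 60 (7.38%, 5.78% to 9.38%) carried an EcR region of the 10 to 11 h white prepupae and 57 (7.01%, 5.45% to 8.98%) one of the 30 to 33 h prepupae. Of the 647 HDAC3 regions without HDAC1, 4 (0.62%, 0.24% to 1.58%) and 3 (0.46%, 0.16% to 1.35%) did. Of the 1135 wider regions in all 4 lists, 98 (8.63%) and 90 (7.93%) did. By bases, the 10 to 11 h list covered 1.31% of HDAC1 regions without HDAC3, 6.19 times its share of the arms. It covered 0.336% of shared regions (1.59 times) and 0.0459% of HDAC3 regions without HDAC1 (0.217 times). For the 30 to 33 h list these shares were 1.22% (5.55 times), 0.305% (1.39 times) and 0.0354% (0.161 times). The EcR lists are labelled EcR-GFP and were made from prepupae, while the deacetylase lists were made from embryos.

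The insulator protein CTCF, mapped in the S2 cell line, leaned to HDAC1 less strongly. The list titled CTCF200 covered 15.1% of bases in HDAC1 regions without HDAC3, 7.57% in HDAC3 regions without HDAC1 and 14.7% in shared regions, against 5.06% of the arms. The list titled CTCF500 covered 9.46%, 3.83% and 6.83%, against 3.08% of the arms. Both kinds thus lay above the level of the arms, with 1.49-fold and 1.24-fold for HDAC3 regions without HDAC1.

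Among the 6 lists of the other deacetylases, lists with the same label differed. The 2 lists of HDAC11 went to opposite sides: list 1 covered 16.8% of the bases in HDAC1 regions without HDAC3 and 1.61% in HDAC3 regions without HDAC1, and list 2 covered 1.38% and 13.2%. HDAC4a list 1 covered 19.2% and 3.63%, whereas HDAC4a list 2 covered 14.4% and 22.8%. By regions, HDAC4a list 2 met 31.7% and 33.1%, a ratio of 0.959 against 0.631 by bases, and it covered more of the HDAC1 kind on 2 of 6 arms. HDAC6 list 2 covered 52.6% and 9.64%, whereas HDAC6 list 1 covered 13.2% and 15.2%, an order that turned when counted by regions (28.8% against 22.9%). All these lists share the input library with the HDAC1 and HDAC3 lists. Sizes, though not sides, depended on HDAC1 list 1: without it the ratio of the first share to the second went from 5.46 to 2.12 for HDAC6 list 2, from 5.28 to 2.96 for HDAC4a list 1 and from 10.5 to 4.91 for HDAC11 list 1. For HDAC6 list 1 it went from 0.869 to 0.566.

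**Figure D4:**
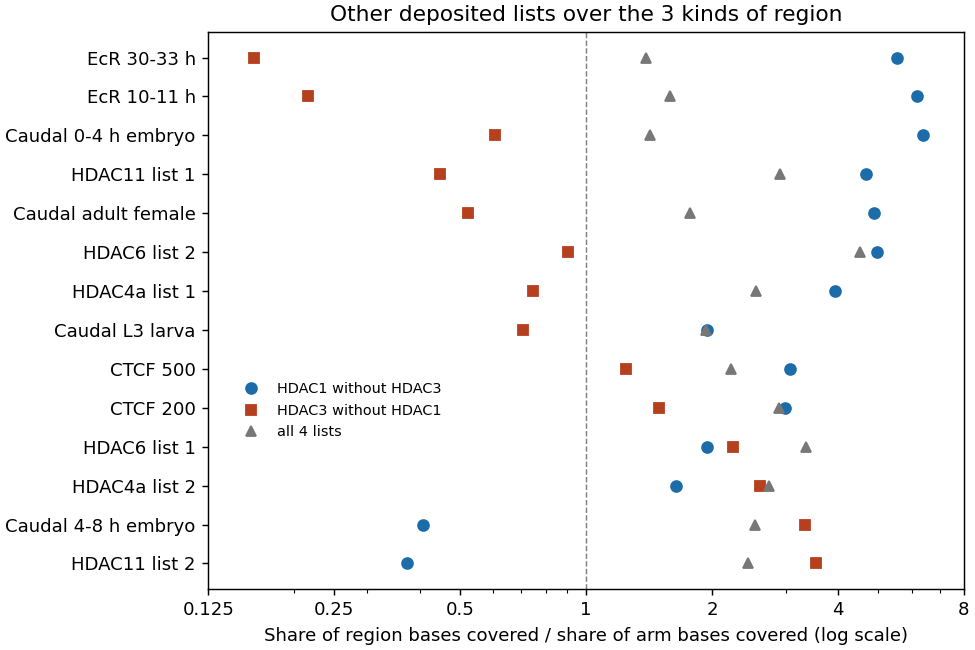
Share of region bases covered by each of the 14 other lists, divided by the share of arm bases that list covers (log scale, 1 marks the level of the arms), for the 3 kinds of region. Lists are ordered by the ratio of the first kind to the second. EcR, early Caudal and HDAC11 list 1 lie above 1 over HDAC1 regions without HDAC3 and below 1 over HDAC3 regions without HDAC1, and Caudal of 4 to 8 h embryos and HDAC11 list 2 the other way round.

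For the embryo Caudal lists, the regions of HDAC1 list 2 alone showed the same tendency as the HDAC1 regions without HDAC3. Early Caudal covered 18.5% of their bases, 4.31 times its share of the arms, and the 4 to 8 h list covered 2.94%, 0.321 times its share. Their median width was 2332.5 bp. Other lists set them apart. HDAC6 list 2 covered 12.7% of their bases against 52.6% in the HDAC1 regions without HDAC3. HDAC6 list 1, HDAC4a list 2 and larval Caudal lay near the level of the arms, at 1.05, 1.02 and 0.957 times. Over the HDAC1 regions without HDAC3 they lay at 1.95, 1.64 and 1.95 times. EcR, at 4.31 (30 to 33 h) and 3.79 times (10 to 11 h), and HDAC11 list 1, at 2.82 times, stayed above that level.

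Within wide peaks some of the other lists ran in opposite directions in the 2 enzymes, and others did not. In HDAC3 peaks of 5 kb or more (1385 in list 1 and 1501 in list 2), the CTCF200 list covered 18.8% of peaks in the outermost 5% of the width in both lists, and 10.4% and 9.63% at the centre. Adult female Caudal fell from 6.46% and 7.06% at the edge to 1.84% and 1.80% at the centre. Caudal of 4 to 8 h embryos rose from 15.1% and 13.2% at the edge to 33.2% and 31.8% at the centre. HDAC11 list 2 rose from 7.62% and 6.76% to 12.1% and 11.2%.

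In HDAC1 peaks of 5 kb or more (429 and 613) these 4 lists ran the other way. CTCF200 rose from 6.41% and 5.95% at the edge to 23.8% and 16.6% at the centre, and adult female Caudal from 4.78% and 5.14% to 16.8% and 17.3%. Early Caudal rose from 12.7% and 13.3% to 25.6% and 30.3%. Caudal of 4 to 8 h embryos fell from 13.5% and 10.5% to 9.21% and 2.94%. HDAC11 list 2 was slightly lower at the centre, at 4.55% and 2.69%, than at the edge, at 5.59% and 3.67%. In HDAC1 list 1 peaks it first rose to 6.18%, at 5% to 10% of the width. The 2 lists of each enzyme ran in the same direction for all of these. Both HDAC6 lists, HDAC4a list 2 and HDAC11 list 1 were instead higher at the centre than at the edge in wide peaks of all 4 lists. HDAC4a list 2, for example, went from 20.6% to 29.4% in HDAC3 list 1 and from 19.2% to 28.7% in HDAC1 list 1.

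**Figure D5:**
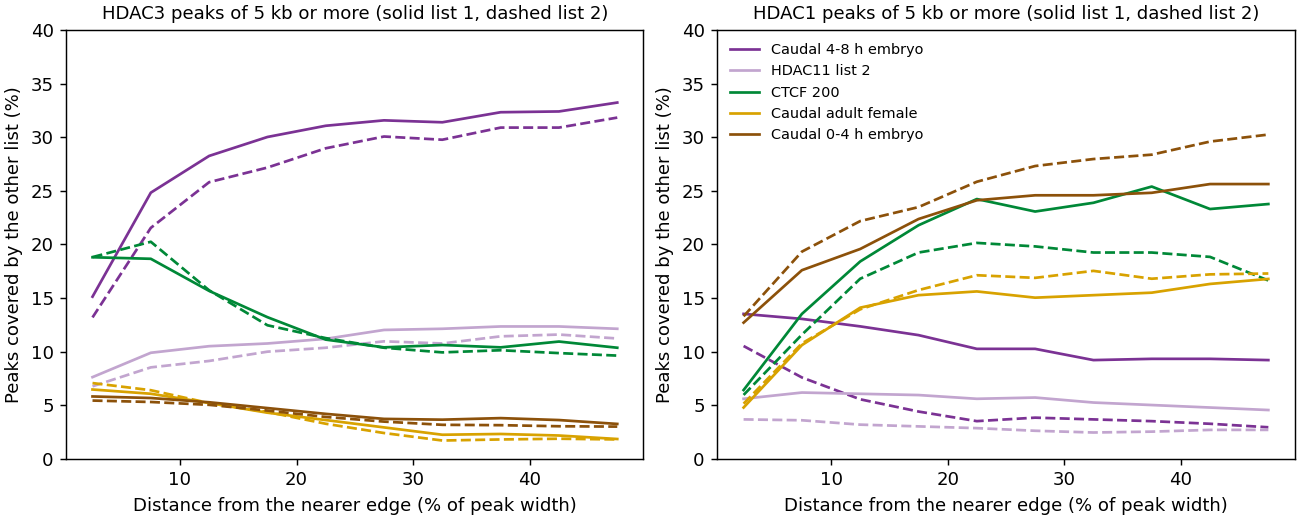
Share of wide peaks (5 kb or more) covered by 5 other lists (vertical, %) by distance from the nearer peak edge (horizontal, % of peak width, 50 being the centre), in HDAC3 peaks (left) and HDAC1 peaks (right); solid lines are list 1 and dashed lines list 2. In HDAC3 peaks Caudal of 4 to 8 h embryos is highest at the centre and CTCF200 near the edge, and in HDAC1 peaks CTCF200 and the early and adult Caudal lists are higher at the centre than at the edge, CTCF200 over HDAC1 list 2 peaking at 20.1% before the centre.

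The widest regions of each kind are described one by one. The widest HDAC1 region without HDAC3 spanned 38960 bp at chr3L:19140173-19179132, with peaks of up to 14080 bp in list 1 and 35157 bp in list 2. It overlapped 10 of the 14 other lists, both EcR lists among them. The next, of 38236 bp at chr2L:14427445-14465680, is the widest peak of HDAC1 list 2 named above. Next, a region of 29929 bp at chr3R:798205-828133, held 3 peaks in each HDAC1 list and overlapped 12 other lists. The next 2 lay at chr3R:5694981-5714130 and chr3L:19023155-19040868. All 5 overlapped early Caudal, HDAC4a list 1 and HDAC6 list 2, and 3 of the 5 also overlapped Caudal of 4 to 8 h embryos. Of all 813 regions of this kind, 41.1% met early Caudal, 37.0% HDAC4a list 1, 72.1% HDAC6 list 2 and 13.9% Caudal of 4 to 8 h embryos.

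The widest HDAC3 region without HDAC1, 19929 bp at chrX:1348999-1368927, was 1 peak in each HDAC3 list, of 19904 and 18228 bp. The others were chr2L:8034704-8053528, chr3L:8455521-8472509, chr3R:20693374-20709971 and chrX:18540439-18556420, of 15982 to 18825 bp. All 5 overlapped Caudal of 4 to 8 h embryos, and none overlapped Caudal of 0 to 4 h embryos or EcR. HDAC6 list 2 overlapped 4 of the 5 and HDAC4a list 1 overlapped 2, so these lists were met in both kinds. Of all 647 regions of this kind, 56.3% met the 4 to 8 h Caudal list and 6.49% the 0 to 4 h list. The EcR lists met 0.62% (10 to 11 h) and 0.46% (30 to 33 h), HDAC6 list 2 met 17.5% and HDAC4a list 1 met 10.4%.

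The widest region in all 4 lists spanned 61996 bp at chr3R:1380336-1442331. It held HDAC3 peaks of up to 36748 and 43819 bp and 5 and 6 HDAC1 peaks of up to 5488 and 5352 bp. A shared region of 55286 bp followed at chr3R:1457660-1512945, again with long HDAC3 peaks (37607 and 24380 bp) and 5 short HDAC1 peaks in each list. The next 2, chrX:1750817-1804414 and chr3L:7312913-7366476, held 6 HDAC1 peaks in each list. At the last of the 5, chr2R:4775822-4828121, HDAC3 list 2 had 1 peak of 51703 bp, while the HDAC1 lists had 4 and 3 peaks of at most 4442 bp. All 5 shared regions overlapped Caudal of 4 to 8 h embryos, CTCF200 and both lists of HDAC4a and HDAC6. Of all 1135 shared regions, 64.6% met this Caudal list and 82.0% CTCF200. HDAC4a met 44.0% (list 1) and 59.0% (list 2) and HDAC6 met 55.9% (list 1) and 94.1% (list 2). The 5 are the widest shared regions, and a wide region meets more peaks.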

How the data were processed

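ChIP-seq peak lists of embryos were compared, grouped by the antibody in the labels. The deposited files give peak starts and ends, other units being absent, on release 5 of the BDGP genome per the submitters' processing notes. The sources used here do not name an aligner or peak caller. The authors pooled libraries before deposit, per the titles.

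Arm length ran from the lowest start to the highest end over all lists. No peaks of a list overlapped, and 0 of the 4 lists' peaks began below 0. Regions were merged where peaks shared 1 bp or more. Share intervals are 95% Wilson intervals; enzymes were compared by exact permutation of the 4 lists. Profiles used 10 steps of 5% of peak width from edge to centre. Windows with at least 50% inside an arm were used. Named are the 5 widest regions of each kind, the widest peak per list, the 3 longest runs and empty stretches per enzyme and the 5 windows of largest relative difference, of which the text gives the leading ones. Members, lists and rules were chosen with earlier results of these data known. Counting was tested on simulated lists. No annotation of release 5 was used here. Python 3.11.15, numpy 2.4.6, scipy 1.17.1 and pandas 2.3.3 were used.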

Additional observations from a re-analysis of the deposited data

Results flagged for a closer look

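Peaks outside the 6 arms, on heterochromatic and unplaced sequences, were left out of every comparison and exceed the limit that a count of 0 allows. HDAC1 list 1 had 13 such peaks, HDAC1 list 2 had 18, HDAC3 list 1 had 15 and HDAC3 list 2 had 13.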

How the results depend on the processing

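Peak width, coverage, the X share, the chromosome 4 share and the share in the 20% of the arms nearest the centromere kept their direction (HDAC3 above HDAC1) under every setting that was run: the wider 50% of each list, equal numbers of the widest peaks (2552), joined peaks, all sequences of the build (not for X and the proximal 20%) and leaving out each list. For chromosome 4 the lists overlapped with the wider 50% (ratio 1.68). The median gap changed direction. Its HDAC3 to HDAC1 ratio was 0.906, and 1.20 with the wider 50%, 1.28 with joined peaks and 0.754 to 1.13 on leaving out a list. HDAC1 regions without HDAC3 numbered 813, and 1705 with midpoints within 1 kb, 456 with the wider 50%, 513 with equal numbers and 853 to 1974 on leaving out a list. HDAC3 regions without HDAC1 numbered 647, and 1477 with midpoints, 366 with the wider 50% and 737 to 918 on leaving out a list. Regions in all 4 lists numbered 1135, and 243 with midpoints, 473 with the wider 50% and 1199 to 1334 on leaving out a list. Midpoints of wide and narrow peaks seldom coincide, and fewer peaks or lists change these counts by construction. The share of 1 Mb windows with separated lists was 70.0%, and 74.2% to 95% on leaving out a list, a setting added after seeing the data. Of the 14 other lists, HDAC6 list 1 alone changed sides: its ratio of base shares between HDAC1 regions without HDAC3 and HDAC3 regions without HDAC1 was 0.869, and 1.26 by regions, 1.31 in regions of 1 to 5 kb and 0.566 to 1.04 on leaving out a list; the cause was not tested. No paired analysis was possible because the list numbers do not tie an HDAC1 list to an HDAC3 list. With no read counts, the effect of depth on width and peak number could not be measured.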
